A study of Mus musculus with 4 samples.

Results

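Txnrd1, Gclm and Gsta4 are antioxidant genes of the thioredoxin and glutathione systems, and they were compared between mouse embryonic fibroblasts with and without knockdown of the translation initiation factor eIF1A. These 3 genes, of 4878 in the table, were chosen by their fold changes in this same comparison, because they moved in different directions. Their values are therefore given as a description, with no test. The fibroblasts, cells grown from mouse embryos, were at passages 5 to 8 and were transfected with siRNA by means of Lipofectamine RNAimax. The 2 control libraries received Si-Negative control, and the 2 knockdown libraries received Si-eIF1A (X+18), a label whose bracketed part is not explained. Strain, sex and time after transfection are not given. Nothing says that replicate libraries come from separate cultures, so a p-value here reflects only the spread among these 4 samples, and that spread may be technical. The comparison addresses how mRNA levels differ between knockdown and control. Bulk MARS-seq, which counts the 3′ ends of polyadenylated RNA, was used, and no gene that encodes eIF1A was analysed here, so the knockdown itself was not checked.

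The thioredoxin and glutathione systems are the main thiol-reducing systems of the cell, and both draw their electrons from NADPH. Txnrd1 encodes cytosolic thioredoxin reductase, a selenoprotein that uses NADPH to reduce thioredoxin. Gclm encodes the modifier subunit of glutamate-cysteine ligase, the enzyme of the first and rate-limiting step of glutathione synthesis. Gsta4 encodes an alpha-class glutathione transferase that joins glutathione to reactive aldehydes from lipid peroxidation, hydroxynonenal above all. All of these genes are known as targets of NRF2, the transcription factor encoded by Nfe2l2, which binds the antioxidant response element in DNA and is held back by KEAP1.

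In mm10, Txnrd1 lies at chr10:82833951-82897712, Gclm at chr3:122245557-122270732 and Gsta4 at chr9:78182774-78209349, each on the plus strand (GENCODE M21). No exon of another gene lies in the last 1000 bases of any of them, the part a 3′ count reads, although Eid3 lies within Txnrd1 and the pseudogene Gm6061 within Gclm. Of the 5 annotated coding transcripts of Txnrd1, which have 5 different starts, 3 end within 10 bases of the gene's end, so these counts do not tell its promoters apart. Gsta4 has close paralogs of the alpha class, and whether reads that fit several genes were counted is not given, so its count is uncertain to that extent.

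Promoters were sought for all 3 genes, which are known NRF2 targets, and are shown for Txnrd1 and Gclm, the genes for which windows were found. RefSeq (GRCm38.p6) gave 3 promoter windows for Txnrd1 and 1 for Gclm, and none was matched for Gsta4. Each window runs from 250 bases before a transcript start to 50 after it and was searched on both strands for TGACNNNGC (the antioxidant response element core), TGANTCA (AP-1), TGATGNAA (the composite element of C/EBP and ATF factors) and GGGCGG (the GC box). Below, the 250 bases before the start are printed 5′ to 3′ on the plus strand for Gclm (chr3:122245307-122245556) and for the Txnrd1 window with a match (chr10:82858956-82859205). Capitals mark the match to TGACNNNGC, which is on the opposite strand in both.
Gclm: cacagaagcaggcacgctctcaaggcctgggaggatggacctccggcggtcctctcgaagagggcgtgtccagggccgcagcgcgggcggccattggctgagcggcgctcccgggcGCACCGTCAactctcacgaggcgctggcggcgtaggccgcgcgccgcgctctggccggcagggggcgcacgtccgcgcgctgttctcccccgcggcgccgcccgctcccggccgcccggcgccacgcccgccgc
Txnrd1: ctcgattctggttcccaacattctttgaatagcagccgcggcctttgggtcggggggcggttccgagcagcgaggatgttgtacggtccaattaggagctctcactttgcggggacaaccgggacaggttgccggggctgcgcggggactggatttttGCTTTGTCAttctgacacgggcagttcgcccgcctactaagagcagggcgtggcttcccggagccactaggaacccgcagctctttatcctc

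The match read TGACGGTGC in Gclm, 134 to 126 bases before the transcript start, and TGACAAAGC in Txnrd1, 92 to 84 bases before it. Of 32851 promoter windows of this length, 12.4% held TGACNNNGC, so a match is common. GGGCGG occurred 4 times in the Gclm window and once in the Txnrd1 window shown, and in 35.7% of all windows. Neither TGANTCA nor TGATGNAA, which occurred in 7.81% and 3.97% of all windows, was found in the windows of these genes. The other 2 Txnrd1 windows held none of the 4 motifs, and no matches of different motifs overlapped.

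Txnrd1 was higher in both knockdown libraries. Its normalised counts, which are reads divided by a single factor per library, were 135 and 162 in controls 1 and 2 and 449.6 and 497 in knockdowns 1 and 2. The lowest knockdown value was 2.77 times the highest control value, whereas replicates differed by 1.20 times in controls and 1.10 times in knockdowns. Group means were 149 ± 19.4 and 473 ± 33.2 (SD, n = 2), a log2 fold change of 1.67 (SE 0.23), which is 3.18-fold. Fold changes here compare knockdown with control as differences of mean log2(normalised count + 1). In these bulk libraries, fewer cells of a type and less RNA per cell cannot be told apart. The value rested on 337 reads in controls and 1288 in knockdowns, and the ratio of the scaled reads was 3.17 with a 95% counting interval of 2.81 to 3.58. This exact (Clopper-Pearson) interval and those below cover counting error only.

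Gclm was also higher, by a smaller factor and with the closest replicates of the 3 genes. It had 240.1 and 263 normalised counts in controls 1 and 2 and 548 and 581 in knockdowns 1 and 2. Replicates differed by 1.10 times in controls and 1.06 times in knockdowns, and the groups lay 2.08 times apart at their nearest values. The means were 252 ± 16.1 and 565 ± 23.6 (SD, n = 2). The log2 fold change was 1.16 (SE 0.22), which is 2.24-fold, and it rested on 568 reads in controls and 1535 in knockdowns, with a read ratio of 2.24 (95% counting interval 2.03 to 2.47).

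Gsta4 went the other way and was the least abundant in reads. It had 38.4 and 51.1 normalised counts in controls 1 and 2 against 10.5 and 5.43 in knockdowns 1 and 2, which is 39 and 63 reads against 13 and 8. The nearest values of the groups were 3.66 times apart, and the knockdown replicates differed by 1.93 times. Means were 44.8 ± 9.01 in controls and 7.96 ± 3.58 in knockdowns (SD, n = 2), a log2 fold change of −2.40 (SE 0.48), or 5.27-fold lower. The read ratio of control to knockdown was 5.86, and its 95% counting interval of 3.64 to 9.87 was the widest of the 3. The fold was 3.94 without knockdown replicate 2 and 7.04 without knockdown replicate 1, and 3.88 with a pseudocount of 5.

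**Figure D1:**
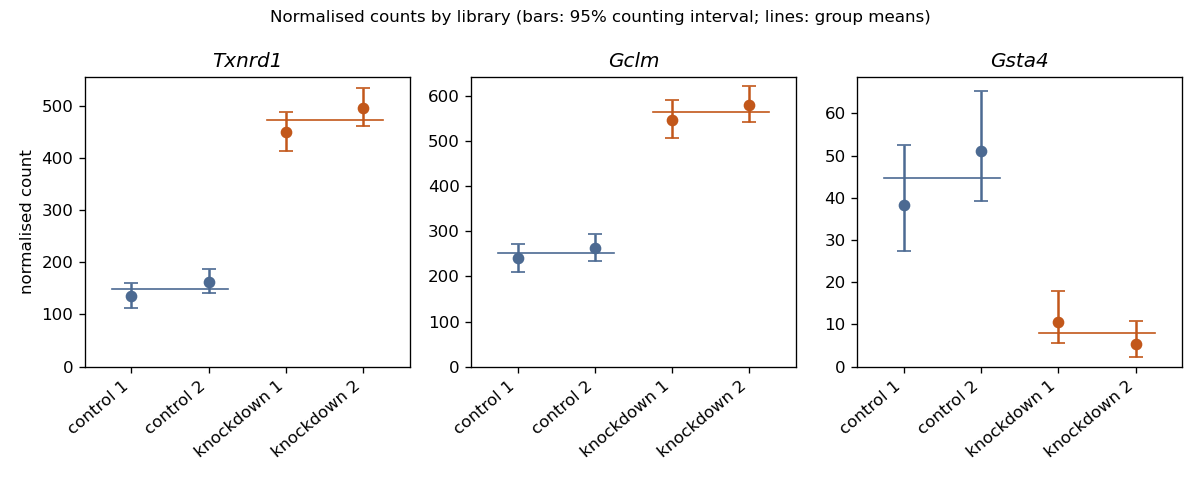
Normalised counts of Txnrd1, Gclm and Gsta4 (vertical axes, each from 0) in the 2 control libraries (blue) and the 2 knockdown libraries (orange), with 95% counting intervals as bars and group means as lines. Txnrd1 and Gclm lie higher in both knockdown libraries, and Gsta4, with 13 and 8 reads in the knockdowns, lies lower.

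The groups did not overlap in any of the 3 genes, but they did not overlap in 67.8% of all 4605 genes tested either. Genes were tested with limma and Benjamini-Hochberg adjustment over these 4605 genes, which had a mean normalised count of at least 5, and were called at an adjusted p under 0.05. By that rule 15.9% of the genes were called higher and 21.6% lower in the knockdown libraries (733 and 996 genes), and with libraries scaled to equal totals the numbers were 1299 and 603. The 3 genes were chosen in this contrast, so nothing is read from their own calls. Among all 4605 fold changes Txnrd1 ranked 156 from the highest, Gclm 420 from the highest and Gsta4 82 from the lowest. At equal totals, where the median gene moved from −0.01 to 0.34 on the log2 scale, Txnrd1 lay 1.68 and Gclm 1.18 above that median and Gsta4 lay at −2.41 relative to it.

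**Figure D2:**
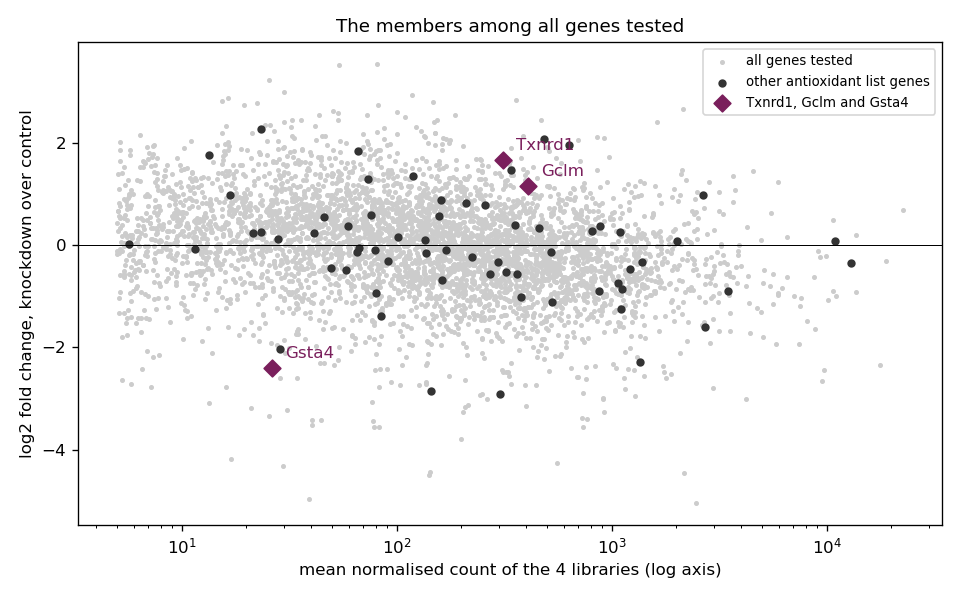
Log2 fold change, knockdown over control, against the mean normalised count of the 4 libraries (log axis) for the 4605 genes tested (grey), the other antioxidant list genes (black) and the 3 members (diamonds). Txnrd1 at 1.67 and Gclm at 1.16 lie in the upper part of the cloud and Gsta4 at −2.40 near its lower edge.

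Recovered reads in the genes of the table numbered 2152331 to 2595625 per library. Of 12 fibroblast markers, 3 were in the table (Col5a1, Vim and Fn1), with summed normalised counts of 17285 to 23017 in controls and 10008 to 12650 in knockdowns. None of 8 macrophage, 7 epithelial and 6 endothelial markers was in the table, so contributions of such cells were not analysed here. The part of the lower fibroblast marker sum in the results below was not tested.

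To place the 3 genes in their pathway, 8 gene lists from general knowledge were examined gene by gene. The lists were chosen with earlier results of these data known, so the shares called in each are a description only. Besides the 3 members they hold 150 genes, of which 68 were in the table and 64 were tested. Of these 64, 12 were called higher and 15 lower, which is 18.8% and 23.4%, close to the 15.9% and 21.6% of all genes. Their median log2 fold change was −0.06, against −0.01 over all genes. At equal totals the same 12 and 8 more were called higher, and 12 of the 15 were called lower. Counts so near the background say nothing particular about the lists as a whole, and the description below is of individual genes. Txn1, Txn2, Gss, Gsr, Nfe2l2, Keap1 and Bach1 were named as fixed partners of the members. The other list genes were named for the smallest p-values of their list in this same contrast, or after their values were seen. A small p-value among them follows from that choice and is given as a description.

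None of the other tested genes of the thioredoxin list was called higher, the substrates of the reductase included. Txn1, cytosolic thioredoxin and the protein that the Txnrd1 product reduces, had 296 and 349 normalised counts in controls and 265 and 178 in knockdowns (log2 fold change −0.56, limma adjusted p = 0.0757). All its knockdown values lay under its control values. The log2 fold change of Txn1 was −0.21 at equal totals (adjusted p = 0.503) and ran from −0.85 to −0.28 with a library left out. Txn2, mitochondrial thioredoxin, had a log2 fold change of 0.26 (adjusted p = 0.357, and 0.0169 at equal totals). Nxn, nucleoredoxin, a thioredoxin-fold protein, fell from 1139 ± 89.3 to 611 ± 61.9 (1.86-fold, adjusted p = 0.00239). Txndc17, another thioredoxin-like protein, had a log2 fold change of 0.59 (adjusted p = 0.123, and 0.0159 at equal totals). Of 7 tested genes of this list besides Txnrd1, none was called higher, 1 was called lower and 6 were not called. Among all genes 15.9% were called higher and 21.6% lower.

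Among the other selenoproteins and the genes that make them, the picture was mixed. Sephs2, the selenophosphate synthetase that supplies selenium for all selenoproteins, rose from 43.1 ± 13.6 to 104 ± 1.39 (2.45-fold, adjusted p = 0.00326). Sepn1, which encodes selenoprotein N of the endoplasmic reticulum, fell from 724 ± 117 to 331 ± 16 (log2 fold change −1.12, adjusted p = 5.03e-04). Eefsec, the elongation factor for selenocysteine, had a log2 fold change of −0.52 (adjusted p = 0.0718). Gpx4, a selenoprotein that reduces lipid peroxides and has an annotated pseudogene, had −0.47 (adjusted p = 0.0980). Of the 9 tested genes besides Txnrd1, 1 was called higher, 1 lower and 7 neither way, against 15.9% higher and 21.6% lower among all genes. Sep15, 2700094K13Rik and Selt, which encode selenoproteins F, H and T and were named after their values were seen, had log2 fold changes of 0.39, 0.37 and 0.98 (adjusted p = 0.413, 0.277 and 0.138). All of them were called higher at equal totals (adjusted p = 0.0210, 0.00657 and 0.0479), the first pair without control replicate 2 (4.20e-05 and 0.0396) and 2700094K13Rik without knockdown replicate 2 (0.0330). The value of Sep15 ran from −0.45 without control replicate 1 to 1.23 without control replicate 2, and that of 2700094K13Rik was −0.039 without knockdown replicate 1. Selt has an annotated pseudogene.

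Around Gclm, genes of glutathione supply and recycling had 4 called higher and 1 called lower among 10 tested, against 15.9% and 21.6% of all genes. Gsr, glutathione reductase, which uses NADPH to regenerate glutathione, had 68.9 and 60.1 normalised counts in controls and 123 and 224 in knockdowns (2.55-fold higher, adjusted p = 0.00161). Its groups did not overlap, as in 67.8% of all genes tested. Knockdown 2 lay well above knockdown 1, and without knockdown replicate 2 the call was lost, at 1.89-fold. Cth, cystathionine gamma-lyase, which makes cysteine, rose from 7.42 ± 2.14 to 39.2 ± 4.09 (4.85-fold, adjusted p = 0.00102), and a predicted gene on its strand overlaps its last 1000 bases. Slc3a2, the heavy chain shared by the cystine and other amino acid exchangers, named after its values were seen, rose 1.97-fold (adjusted p = 0.00316), a call that was lost without knockdown replicate 2 (0.0785) and in limma without its trend (0.0567).

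The genes that break glutathione down or complete its cycle moved in opposite directions. Chac1, which cleaves glutathione, rose from 258 ± 14.6 to 1004 ± 18.7 (3.88-fold, adjusted p = 8.89e-07). Oplah, which turns oxoproline from that cleavage back into glutamate, fell from 536 ± 79.1 to 69.8 ± 7.45 (7.56-fold, adjusted p = 4.13e-08), and an exon of Smpd5 on the opposite strand overlaps its last 1000 bases. Gss, glutathione synthetase, which completes the tripeptide that the Gclm enzyme begins, had 399.6 and 467 normalised counts in controls and 319 and 270.3 in knockdowns. This log2 fold change of −0.56 was not called (adjusted p = 0.0555). It was −0.20 at equal totals (adjusted p = 0.497) and ran from −0.67 to −0.44 with a library left out. Gclc, the catalytic partner of Gclm, and the cystine transporter Slc7a11 were not analysed here.

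No glutathione transferase was called higher, and Gsta4 was 1 of 6 tested. Mgst3, a microsomal transferase and peroxidase, had 267 and 242 normalised counts in controls and 46.8 and 25.1 in knockdowns (7.21-fold lower, adjusted p = 8.75e-07). Gstm5, of the mu class, had 94.5 and 153 in controls and 42.8 and 48.9 in knockdowns (2.60-fold lower, adjusted p = 0.00178). Gstp1, of the pi class, was 1.91-fold lower (adjusted p = 0.0174), a call lost at equal totals (0.139), without control replicate 1 (0.0914) and without knockdown replicate 2 (0.128). In each of these genes both knockdown libraries lay under both control libraries, but groups did not overlap in 67.8% of all genes tested either. The remaining pair, Gsto1 and Gstz1, named after their values were seen, had log2 fold changes of 0.28 and 0.10 (adjusted p = 0.317 and 0.828). At equal totals Gsto1 was called higher (0.0140), and without control replicate 1 the value of Gstz1 was −0.43. Of the 5 tested genes besides Gsta4, 3 were called lower, against 21.6% of all genes, with a list median of −0.94. That count was 2 at equal totals, without control replicate 1 and without knockdown replicate 2, and on so few genes it is a description only. Of the 27 genes on this list, 21 were not analysed here, among them every other alpha-class member.

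Enzymes that remove peroxides and superoxide had 3 genes called lower and none higher among 10 tested, against 21.6% and 15.9% of all genes. At equal totals, without knockdown replicate 2 and without the limma trend the number called lower was 2. Prdx5, a peroxiredoxin found in mitochondria and peroxisomes that depends on thioredoxin, had 4042 and 4037 normalised counts in controls and 1789.6 and 990.4 in knockdowns (3.03-fold lower, adjusted p = 7.23e-05). Prdx4, the peroxiredoxin of the endoplasmic reticulum, fell from 1548 ± 344 to 669.8 ± 241 (2.36-fold, adjusted p = 7.09e-04). Park7, which encodes DJ-1, a redox-sensitive protein, was 1.67-fold lower (adjusted p = 0.0093), and its call was lost at equal totals (0.143), without knockdown replicate 2 (0.0871) and without the limma trend (0.0658). In Prdx4 and Prdx5 the groups were separate, as in 67.8% of all genes tested, but knockdown 2 lay well under knockdown 1.

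Because both systems run on NADPH, genes around its supply were listed too. Some of them, such as the epimerase Rpe, do not make NADPH themselves, so a count over the list gives no direction for NADPH supply. Of 12 tested genes 6 were called higher and 3 lower, against 15.9% and 21.6% of all genes. Without knockdown replicate 1, 3 were called higher. Nadk, NAD kinase, which makes NADP in the cytosol, rose from 179 ± 12.2 to 499 ± 52.0 (2.77-fold, adjusted p = 4.81e-05). Mthfd2 and Aldh1l2, enzymes of mitochondrial folate metabolism, rose 4.22-fold (adjusted p = 5.49e-07) and 3.58-fold (2.25e-04), and an exon on the opposite strand overlaps the end of Aldh1l2. Idh2, mitochondrial NADP-dependent isocitrate dehydrogenase, had 2192 and 2308 normalised counts in controls and 464 and 462 in knockdowns (4.85-fold lower, adjusted p = 9.65e-08). Its knockdown values lay far below its control values, with replicates nearly equal. Nadk, Mthfd2, Aldh1l2 and Idh2 were named for the smallest p-values of this list. The following genes were also named after their values were seen. Idh1, the cytosolic counterpart of Idh2, fell 4.06-fold (adjusted p = 0.00103), and G6pdx, the first enzyme of the pentose phosphate pathway, fell 1.82-fold (adjusted p = 0.00297). Me2 (a mitochondrial malic enzyme), Mthfd1 (a cytosolic folate enzyme) and Rpe (an epimerase of the pentose phosphate pathway) rose 1.85-fold, 1.78-fold and 3.39-fold (adjusted p = 0.00802, 0.00848 and 0.0241), and all of them lost their calls without knockdown replicate 1 (adjusted p = 0.0593, 0.0683 and 0.0546). Rpe had only 4 and 9 reads in controls 1 and 2 and 20 and 39 in knockdowns 1 and 2. It also lost its call without control replicate 1 or knockdown replicate 2, and an exon of Kansl1l overlaps its end.

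**Figure D3:**
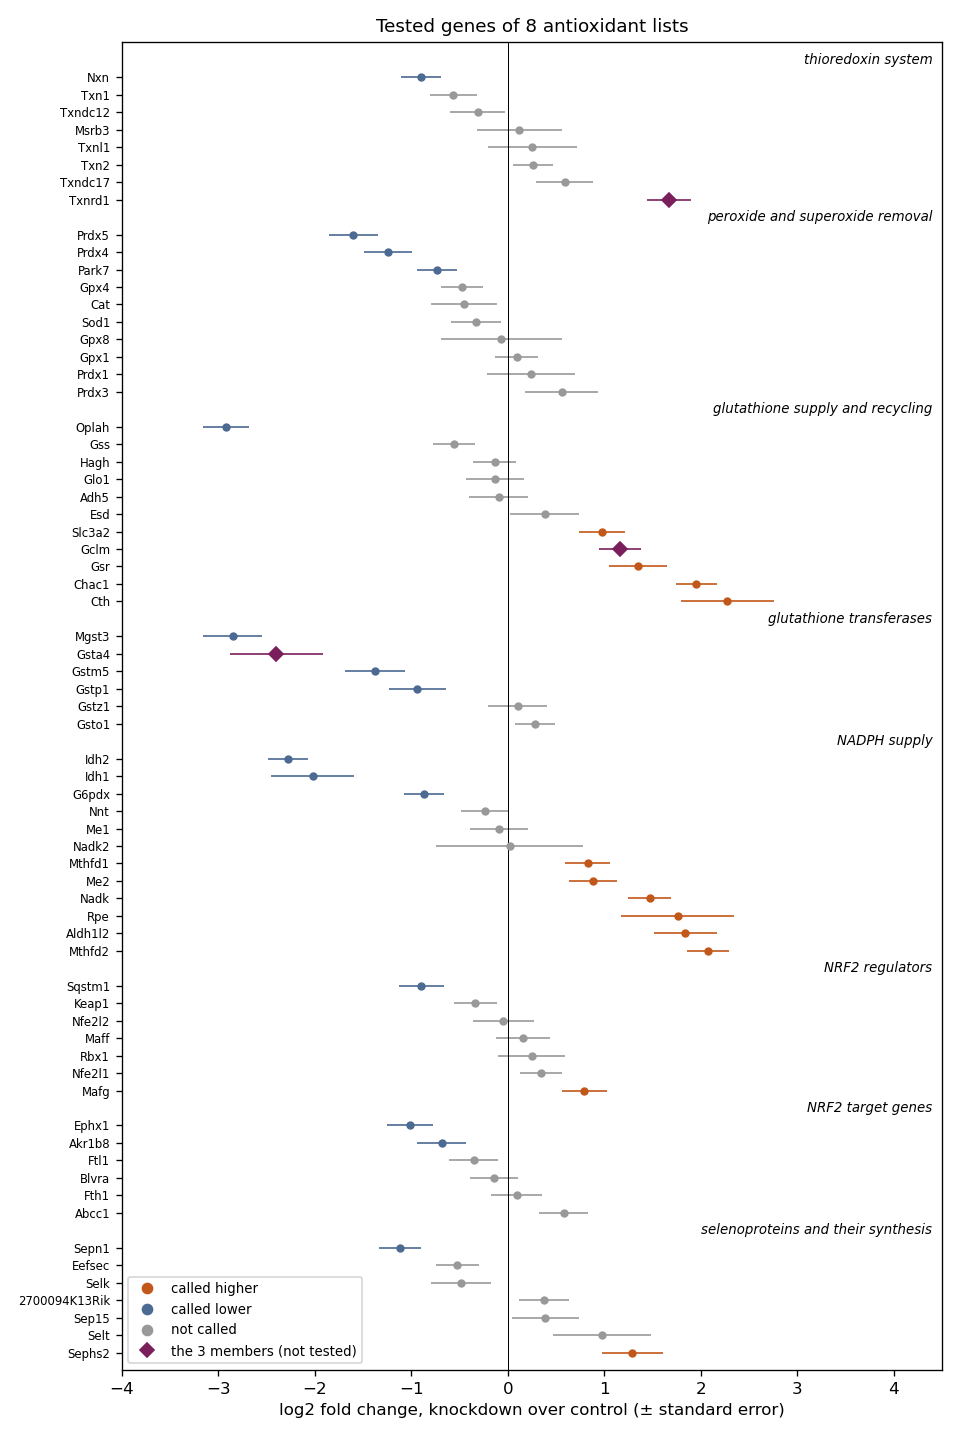
Log2 fold change, knockdown over control, with standard errors as bars, for the tested genes of the 8 lists, each gene shown once under the first list that holds it. Called genes are orange (higher) or blue (lower), uncalled genes grey and Txnrd1, Gclm and Gsta4 are diamonds; 3 called transferases lie on the side of Gsta4, and in the list of glutathione supply and recycling Gsr, Slc3a2, Cth and Chac1 lie on the side of Gclm and Oplah, at −2.92, on the other.

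Of 7 tested regulators of NRF2, 1 was called higher and 1 lower, against 15.9% and 21.6% of all genes. Nfe2l2 had 54.1 and 83.6 normalised counts in controls and 68.6 and 61.8 in knockdowns, so its groups overlapped, and its log2 fold change of −0.05 (adjusted p = 0.926) turned to 0.30 at equal totals. Keap1 had −0.34 (adjusted p = 0.250), or 0.014 at equal totals, and Nfe2l1, a relative of NRF2, had 0.34 (adjusted p = 0.232, and 0.0104 at equal totals). Mafg, a small MAF protein that pairs with NRF2 on DNA, rose from 189 ± 41.4 to 325 ± 7.4 (1.73-fold, adjusted p = 0.0125). That call was lost in 4 settings, with adjusted p-values of 0.0501 to 0.0820, and an exon of Sirt7 overlaps the end of Mafg on the same strand. Sqstm1, the autophagy receptor p62, which binds KEAP1, fell 1.86-fold from 4521 ± 727 (adjusted p = 0.00535). The call was lost in limma without its trend (adjusted p = 0.0598) and without knockdown replicate 1, where the fall was 1.60-fold. An exon of Mrnip on the opposite strand overlaps the end of Sqstm1. Bach1, a repressor at antioxidant response elements, had 2 and 6 reads in controls and 1 in each knockdown library and was below the filter.

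Known NRF2 target genes were found on both sides. Besides the 3 members, 13 were tested, with a median log2 fold change of −0.14. Of these, 1, Gsr, was called higher, 4 were called lower and 8 neither way. Among all genes 15.9% were called higher and 21.6% lower. The 4 called lower were Gstp1 and G6pdx, given above, with Ephx1 and Akr1b8, named after their values were seen. Ephx1, microsomal epoxide hydrolase, fell 2.02-fold from 503 ± 57.6 to 254 ± 77.3 (adjusted p = 0.00276), and its call was lost without knockdown replicate 2 (0.0792) and without the limma trend (0.0539). An exon of Gm36961 on the same strand overlaps the end of Ephx1. Akr1b8, an aldo-keto reductase, was 1.61-fold lower (adjusted p = 0.0406) and was not called in 8 settings, the fit with a replicate block (0.0589) among them. The ferritin genes Fth1 and Ftl1, which encode the iron storage protein, were also named after their values were seen and had log2 fold changes of 0.09 and −0.35 (adjusted p = 0.822 and 0.302), with no stable sign: Fth1 ran from −0.20 to 0.38 with a library left out, and Ftl1 was at 0.0023 at equal totals. Ftl1 has an annotated pseudogene, and an exon of Gm22133 on the same strand overlaps its end. Hmox1 and Nqo1 were not analysed here. Without knockdown replicate 2 none of the 13 was called higher and 1 was called lower, and at equal totals 2 were called higher and 2 lower.

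The promoter motif that Txnrd1 and Gclm share was present in list genes of every kind of call. TGACNNNGC occurred in at least 1 promoter window of 1 of 8 genes called higher (Mafg), of 2 of 14 called lower (Gstm5 and G6pdx) and of 8 of 33 not called (Nfe2l2 among them), against 17.1% of the 3778 tested genes with a promoter. TGATGNAA occurred in 1 list gene called higher, Chac1, and in none of the others, against 2.65% of tested genes. TGANTCA occurred in none of 8 called higher, 2 of 14 called lower and 3 of 33 not called, against 5.43% of tested genes. For GGGCGG the counts in the same order were 5 of 8, 14 of 14 and 30 of 33, against 75.1%. These counts are small and are given as a description.

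**Figure D4:**
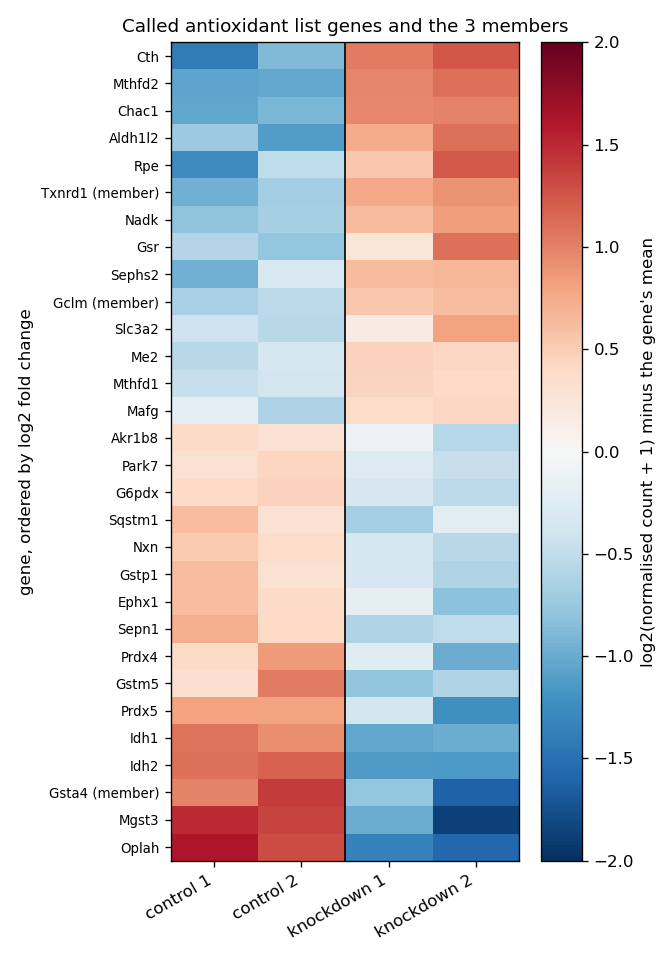
Centred log2(normalised count + 1), the value minus the gene's mean over the 4 libraries, for the 27 called list genes and the 3 members, ordered by fold change. Red is above and blue below the gene's mean; Txnrd1 and Gclm sit with Gsr, Nadk and Chac1 in the upper block, and Gsta4 with Mgst3, Idh2 and Oplah in the lower.

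The genes most like each member were taken as those with the smallest distance between centred log2 profiles over the 4 libraries, a measure that rests on few points and in which the group difference weighs most. Nearest to Txnrd1 were Enoph1, an enzyme of methionine salvage, Iars, isoleucyl-tRNA synthetase, and Heatr1, a factor of ribosomal RNA synthesis, at distances of 0.08, 0.09 and 0.09. Nearest to Gclm were Dnajc19 (0.06), a mitochondrial import protein, Ranbp1 (0.06), which acts in nuclear transport, and Dhx58 (0.11), a viral RNA sensor. Nearest to Gsta4 were Ech1 (0.09), a fatty acid oxidation enzyme, Mgp (0.18), matrix Gla protein, and Cercam (0.28). Ech1 had 448 and 585 normalised counts in controls and 131 and 67.2 in knockdowns. Its order of the 4 libraries was that of Gsta4, which the choice by smallest distance makes likely. No gene of the 8 lists was among these 9, but besides the members the lists hold only 64 of the 4605 genes tested.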

How the data were processed

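Bulk MARS-seq libraries from 2 control and 2 eIF1A knockdown samples were analysed, with groups, numbers and columns matched by title. The deposited signal is called normalised counts in the file's name; the authors' factors, and whether molecular identifiers were collapsed, were not given in the sources used here. Per the submitters' processing notes, bcl2fastq 2.17.1.14, cutadapt 1.8.3, STAR, HTSeq, DESeq2 and mm10 were used, without stated roles. Each column held whole multiples of its smallest value (100% of values within 0.01 read), so reads were recovered. limma 3.58.1 (R 4.3.3) with a mean-variance trend was fitted to log2(value + 1) of 4605 genes with a mean of at least 5, with Benjamini-Hochberg adjustment. As alternatives on those reads, the quasi-likelihood test of edgeR 4.0.16 called 807 higher and 909 lower, and DESeq2 1.42.0 called 620 and 828. The fits were tested on simulated data. Members and lists were chosen with earlier results of these data known. Named genes were the members, their 13 fixed partners where present, up to 4 genes of smallest p per list and the 3 most alike genes per member. Symbols were matched to GENCODE M21 and RefSeq GRCm38.p6, through synonyms where needed. Motifs were searched by exact letters.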

Additional observations from a re-analysis of the deposited data

How the results depend on the processing

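The 3 members kept their directions under every alternative run. Txnrd1 and Gclm moved by more than the replicate spread at equal totals, to log2 fold changes of 2.02 and 1.52, and with a library left out their folds ran from 2.90 to 3.49 and from 2.14 to 2.35. The log2 fold change of Gsta4 then ran from −2.82 to −1.98. At equal totals 20 list genes were called higher, and over all genes 1299 were called higher and 603 lower. Limma without its trend called 655 genes lower. With each library left out, 442 to 758 genes were called higher and 716 to 988 lower, and 8 to 13 and 11 to 16 list genes. Of 27 called list genes, 16 kept their calls in all 14 planned settings. The fold of none of these 27 or of the members moved by over 1.5 times. Among the list genes named, values that changed sign, all uncalled with every library included, were those of Nfe2l2 (0.016 with TMM scaling, 0.30 at equal totals, −0.36 to 0.26 with a library left out), Keap1 (0.014 at equal totals) and Ftl1 (0.0023 at equal totals). With a library left out, Gstz1 ran from −0.43 to 0.64, Fth1 from −0.20 to 0.38, Sep15 from −0.45 to 1.23 and 2700094K13Rik from −0.039 to 0.79. The cause of these shifts was not tested. Numbers shared by controls and knockdowns are not stated to mark a shared culture. The deviations of same-numbered libraries correlated at −0.13 over genes. With the number as a replicate block, 641 genes were called higher and 918 lower, and 12 and 14 list genes. A crossed block, added after the data were seen, called 891 and 1154, and 13 and 19 list genes. With 13 and 8 reads in the knockdown libraries, Gsta4 is limited by depth, and a gene under the filter, such as Bach1, could not be tested.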
